A study of Mus musculus with 12 samples.

Results

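The 36 genes described here make, sense, move and store cholesterol in the mouse spinal cord. They are the rows of the deposited expression tables whose Ensembl IDs carry the 36 listed symbols in the GENCODE M21 annotation, and all 36 were found among 33906 rows. By role they fall into 18 enzymes of cholesterol synthesis, 6 genes that control synthesis or carry sterol inside the cell, 5 genes of the sterol-sensing receptors and cholesterol efflux, 4 genes of lysosomal release and storage, and 3 enzymes that make oxysterols, the hydroxylated forms of cholesterol.

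The data are 12 libraries of poly(A)-selected RNA from the lumbar spinal cord, with 1 library per mouse and 3 mice in each of 4 groups. Group C (C79, C84 and C85) held mice of an ALS (amyotrophic lateral sclerosis) model given manganese-doped carbon dots, a nanomaterial built to act like superoxide dismutase. Group E (E75, E77 and E90) held mice of the same model and is read as the edaravone group by elimination, because the series text lists the letter E but describes edaravone, an approved ALS drug, under the letter D. Group P (P66, P67 and P74) held ALS model mice given PBS, and group H (H1, H2 and H4) held healthy wild-type mice. Groups C, E and P share the ALS model, and the sources used here do not give its transgene, promoter or strain, nor the age, sex or doses. Values are FPKM (fragments per kilobase of exon, scaled to library size), so levels can be compared between genes per unit of length.

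Reads recovered from the whole-read steps of the FPKM values summed to 16.8 M to 19.8 M in a library. The steps themselves give library totals of 15.5 M to 18.4 M. The sums were 106.6% to 108.0% of these totals, and the cause was not tested. Neuron, oligodendrocyte, astrocyte and microglia markers were present in all 12 libraries, as spinal cord should hold. Skeletal muscle markers summed to 2086 FPKM in H1, against at most 208 FPKM in any library of C, E or P. Hox genes of the caudal cord summed to only 3.41 FPKM in H4. Counts are therefore also given without H1 and without H4. The Hox sums were 62.01 to 94.1 FPKM in E cords, above the 39.9 and 37.05 FPKM of H1 and H2 as well. They were 10.03 to 43.97 FPKM in C cords and 23.7 to 81.4 FPKM in P cords. Leaving out H4 thus does not remove the difference between E and H. The part of the cord level sampled in the comparisons with H was not tested. The exons of 12 of the 36 genes share bases with another gene, in 8 of them only with genes on the opposite strand (Fdft1 with Ctsb over 18.3% of its exon bases, Hmgcs1 with a non-coding gene model over 12.1% and Ch25h with another over 11.5%), and as the strand setting of the counting is not known, reads of such pairs cannot be told apart. In bulk tissue, fewer cells of a type and less RNA per cell cannot be told apart.

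Cholesterol is built from acetyl-CoA through mevalonate, squalene and lanosterol. The transcription factors SREBP1 and SREBP2 (Srebf1, Srebf2) turn the pathway's genes on when sterol is scarce, with Scap as their escort and Insig1 and Insig2 as the retention proteins that hold them back when sterol is plentiful. The liver X receptors (Nr1h2, Nr1h3) sense oxysterols and switch on efflux, and the central nervous system makes nearly all of its cholesterol locally, most of which resides in myelin.

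The proximal promoters show how the genes differ in the letters that SREBP and its partner NF-Y are known to bind. Windows of 300 bases (250 before and 50 after the annotated start) were available for 30 of the 36 genes from RefSeq on the GRCm38.p6 build. Capitals mark matches on either strand to CCAAT (the NF-Y box, ATTGG when on the other strand), TCACNCCAC (a core of the sterol element bound by SREBP) and CACGTG (the E-box, the same on both strands). The first 4 are from genes that were lower in ALS cord and hold the CCAAT box, and the last 2 are from the genes with the largest increases among the 36. The box does not separate lower from higher genes: Mylip, Soat1 and Lipa rose in P against H and hold it, and Acat2 fell and does not. Hmgcs1 lies at chr13:119690101-119690400 (plus strand), Mvk at chr5:114444019-114444318 (plus), Idi1 at chr13:8885356-8885655 (plus), Insig1 at chr5:28071162-28071461 (plus), Abca1 at chr4:53159846-53160145 (minus) and Ch25h at chr19:34475099-34475398 (minus). Each is written 5′ to 3′ on its gene's strand.
Hmgcs1: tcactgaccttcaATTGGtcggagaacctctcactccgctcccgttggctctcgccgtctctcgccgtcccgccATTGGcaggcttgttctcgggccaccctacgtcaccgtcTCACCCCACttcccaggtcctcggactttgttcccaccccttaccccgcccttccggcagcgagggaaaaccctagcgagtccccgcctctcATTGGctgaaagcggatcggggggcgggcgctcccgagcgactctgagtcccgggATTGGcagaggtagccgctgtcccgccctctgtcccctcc
Mvk: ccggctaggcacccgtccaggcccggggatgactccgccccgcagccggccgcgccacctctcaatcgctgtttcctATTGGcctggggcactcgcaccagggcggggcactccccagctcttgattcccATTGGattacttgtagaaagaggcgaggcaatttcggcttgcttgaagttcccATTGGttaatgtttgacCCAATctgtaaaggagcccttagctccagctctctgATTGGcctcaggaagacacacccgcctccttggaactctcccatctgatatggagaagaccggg
Idi1: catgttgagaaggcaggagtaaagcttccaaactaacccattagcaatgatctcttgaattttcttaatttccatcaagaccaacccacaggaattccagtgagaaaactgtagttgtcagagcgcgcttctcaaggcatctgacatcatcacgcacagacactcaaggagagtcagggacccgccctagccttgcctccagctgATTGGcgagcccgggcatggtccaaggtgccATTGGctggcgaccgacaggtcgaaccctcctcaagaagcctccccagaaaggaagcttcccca
Insig1: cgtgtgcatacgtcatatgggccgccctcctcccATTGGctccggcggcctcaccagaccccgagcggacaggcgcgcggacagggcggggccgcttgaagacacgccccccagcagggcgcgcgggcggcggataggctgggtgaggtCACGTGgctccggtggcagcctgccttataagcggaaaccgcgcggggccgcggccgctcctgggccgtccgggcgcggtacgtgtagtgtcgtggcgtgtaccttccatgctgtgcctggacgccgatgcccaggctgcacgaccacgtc
Abca1: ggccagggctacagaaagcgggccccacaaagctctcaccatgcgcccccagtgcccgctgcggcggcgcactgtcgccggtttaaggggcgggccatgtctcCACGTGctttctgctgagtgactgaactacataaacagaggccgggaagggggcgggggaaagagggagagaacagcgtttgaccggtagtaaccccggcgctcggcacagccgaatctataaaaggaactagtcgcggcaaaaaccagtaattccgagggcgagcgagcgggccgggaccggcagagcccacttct
Ch25h: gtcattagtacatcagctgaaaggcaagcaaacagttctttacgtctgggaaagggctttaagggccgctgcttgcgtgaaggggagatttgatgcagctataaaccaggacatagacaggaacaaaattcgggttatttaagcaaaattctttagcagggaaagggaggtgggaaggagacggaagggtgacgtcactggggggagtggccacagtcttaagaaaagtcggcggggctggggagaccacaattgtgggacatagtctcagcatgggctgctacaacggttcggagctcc

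The CCAAT box was found in 14 of the 15 synthesis genes with a window, all but Acat2, against 41.1% of the 27025 genes in the whole promoter table. Of its 32 matches in the synthesis windows, 20 began within the 100 bases before the start. It was found in 4 of 5 control genes, in 1 of 4 genes of the receptor and efflux group (Mylip), in 3 of 3 storage genes and in 2 of 3 oxysterol enzymes. The SREBP core was matched in Hmgcs1 alone among these genes, at base -137 counted from the start, against 1.44% of all genes. The E-box was matched in 3 of 15 synthesis genes (Hsd17b7, Sc5d and Dhcr7) and 2 of 5 control genes (Insig1 and Scap). It was also matched in 1 of 4 receptor and efflux genes (Abca1), and in 0 of 3 storage and 0 of 3 oxysterol genes. Of all genes 8.09% held it. The liver X receptor repeat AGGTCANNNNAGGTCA was matched in none of these windows and in 0.0148% of all genes. These matches describe the letters only, and a window with no match says nothing of whether a factor acts on the gene.

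**Figure D1:**
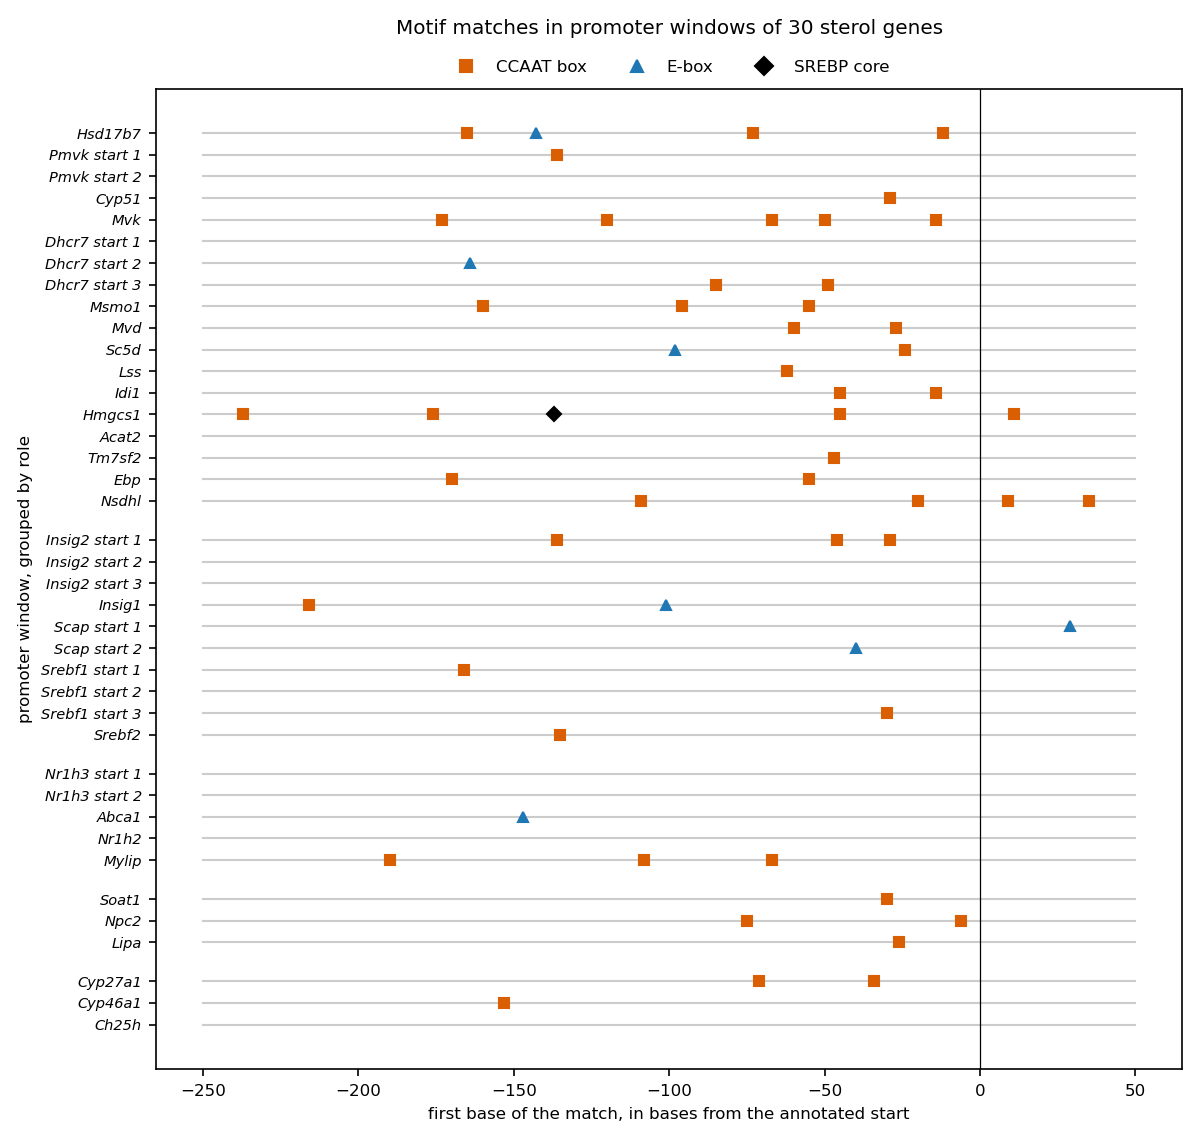
Positions of motif matches in the promoter windows of 30 sterol genes, in bases from the annotated start (horizontal axis), with 1 grey line per window and genes with several annotated starts on several lines. Squares are CCAAT boxes, triangles E-boxes and the diamond the SREBP core, which occurs once, in Hmgcs1; the synthesis genes at the top carry 32 CCAAT matches in all.

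Cord of ALS model mice on PBS (P) was first compared with healthy cord (H). The model and any other way in which P and H mice differed cannot be told apart in this comparison. Of the 18 synthesis enzymes 13 fell and none rose, while 5 of the 12 genes of efflux, storage and oxysterol synthesis rose and none fell. Of all 36 genes 15 fell, where 3.26% of the 18118 genes tested fell, and 6 rose, where 12.2% of all genes rose (limma on log2(FPKM + 1), adjusted p under 0.05). The genes were chosen with earlier results of these data known, so such shares are set side by side here and are no test. Of the calls over all genes 78.9% were higher in P with the FPKM as deposited and 53.2% with median-ratio scaling. Under that scaling 15 of the 36 genes were lower and 4 higher. Of all 18118 genes 1230 were lower and 1396 higher under it, against 591 and 2216 as deposited. The summed FPKM of the 18 synthesis enzymes was 190 to 232 in P cords and 306 to 322 in H cords, a mean of 67.1% of the healthy level. For the 12 genes of efflux, storage and oxysterol synthesis the sum was 165 to 209 FPKM in P cords and 141 to 148 FPKM in H cords, a mean of 131%. Neither pair of ranges overlapped. Gene by gene, 18 of the 36 were lower in every P cord than in any H cord and 6 were higher, where 8.88% of all genes were lower and 26.4% higher in this way.

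All 6 genes of the mevalonate stage fell, with a median log2 difference of -0.67 beside 0.07 for all genes tested. Hmgcs1, which joins acetyl-CoA and acetoacetyl-CoA into HMG-CoA, had 36.9, 35.7 and 41.4 FPKM in P66, P67 and P74, against 59.1, 63.7 and 79.4 FPKM in H1, H2 and H4. The highest P library lay below the lowest H library, and the difference was -0.80 ± 0.12 (log2, SE, n = 3 mice per group; limma adjusted p = 0.00216). Acat2, the thiolase that makes acetoacetyl-CoA, had 14.9, 17.6 and 19.3 FPKM in P cords, against 25.2, 26.4 and 25.1 FPKM in H cords (-0.55 ± 0.09, adjusted p = 0.00418). Mvk, mevalonate kinase, had 3.9, 5.21 and 5.63 FPKM in P cords, against 9.13, 7.69 and 6.94 FPKM in H cords (-0.60 ± 0.12, adjusted p = 0.00897). For Acat2 and Mvk alike the groups did not overlap, and P66 was the lowest of all libraries. Mvd, which forms isopentenyl diphosphate, had 4.71, 6.45 and 7.97 FPKM in P cords, against 12.1, 11.2 and 10.4 FPKM in H cords (-0.75 ± 0.14, adjusted p = 0.00592). Idi1, the isomerase that follows, stood at 5.47, 5.74 and 9.3 FPKM in P cords, against 11.8, 13.8 and 12.2 FPKM in H cords (-0.82 ± 0.18, adjusted p = 0.0122). P74 stood above the other P cords in both genes without reaching any H cord. Pmvk, phosphomevalonate kinase, differed by -0.48 ± 0.13 (adjusted p = 0.0265). The calls of Idi1 and Pmvk did not hold in every fit that left out 1 library.

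Among the 4 genes of the squalene and lanosterol stage 2 fell. Fdft1, squalene synthase, had 13.6, 17.4 and 18.7 FPKM in P cords, against 24.6, 26.4 and 25.7 FPKM in H cords (-0.61 ± 0.10, adjusted p = 0.00308). Sqle, squalene epoxidase and a rate-limiting step of the pathway, had 9.21, 9.4 and 11.5 FPKM in P cords, against 16.9, 15.8 and 13.7 FPKM in H cords (-0.58 ± 0.14, adjusted p = 0.0179). The groups did not overlap in either gene, though the call of Sqle was lost without P66, P67, H1 or H2. Lss, which closes the sterol ring, differed by -0.15 (95% CI -0.35 to 0.06) and did not pass. Fdps, farnesyl diphosphate synthase, was counted with only 12 to 30 reads in a library (0.165 to 0.389 FPKM), far below its neighbours in the pathway, and did not pass (-0.16, 95% CI -0.32 to 0.01). It shares 26.7% of its annotated exon bases with another gene model on the same strand, so its level is uncertain.

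Past lanosterol 5 of 8 enzymes fell. Cyp51, the lanosterol demethylase, had 17.1, 19.8 and 22.4 FPKM in P cords, against 29.6, 30.9 and 28.3 FPKM in H cords (-0.57 ± 0.11, adjusted p = 0.00814). Sc5d, a desaturase near the end of the pathway, had 22, 23.6 and 26.3 FPKM in P cords, against 31.7, 32.9 and 32.9 FPKM in H cords (-0.43 ± 0.09, adjusted p = 0.00923). Neither gene's groups overlapped. Msmo1, Nsdhl and Hsd17b7, which remove the methyl groups of lanosterol stepwise, differed by -0.43 ± 0.10, -0.41 ± 0.11 and -0.43 ± 0.10 on the log2 scale (adjusted p = 0.0167, 0.0262 and 0.0156). Their calls were each lost in some of the fits without 1 library. The 3 enzymes that did not pass were Tm7sf2, a sterol reductase (-0.23, 95% CI -0.56 to 0.10), Dhcr7, which makes cholesterol from 7-dehydrocholesterol (-0.22, 95% CI -0.47 to 0.02), and Ebp, a sterol isomerase (0.08, 95% CI -0.08 to 0.24). Ebp had 9.18 to 9.95 FPKM in P cords and 9 to 9.26 FPKM in H cords, and the sign of its difference turned to -0.026 with median-ratio scaling.

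**Figure D2:**
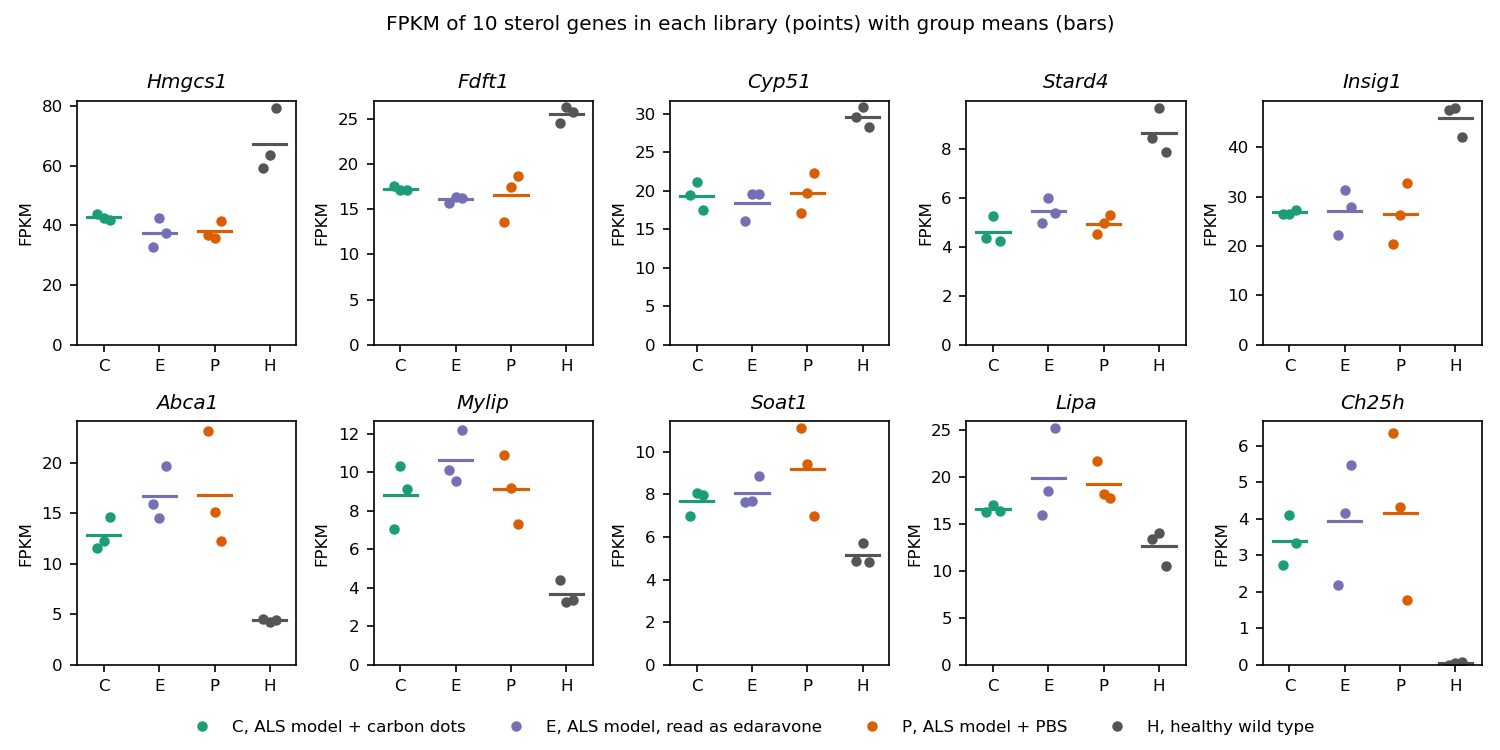
FPKM (vertical axes, starting at 0) of 10 sterol genes in each library (points) with group means (bars), for C, E, P and H from left to right. In the upper row the H points lie above every C, E and P point; in the lower row they lie below every one of them.

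The regulators were not uniform. Insig1, itself a target of SREBP, had 20.4, 26.3 and 32.8 FPKM in P cords, against 47.5, 48 and 42.1 FPKM in H cords (-0.79 ± 0.16, adjusted p = 0.00831). Stard4, a soluble carrier that moves sterol between membranes, had 4.52, 4.95 and 5.27 FPKM in P cords, against 8.43, 9.68 and 7.88 FPKM in H cords (-0.71 ± 0.10, adjusted p = 0.00179). Both fell with no overlap between the groups. Srebf1 rose, with 20.1, 20.7 and 19.5 FPKM in P cords, against 16, 13.1 and 12.3 FPKM in H cords (0.52 ± 0.13, adjusted p = 0.0247), but its call was lost in 6 of 12 alternatives. Srebf2, which encodes the SREBP known for driving cholesterol synthesis, had 23.2, 30.6 and 32.4 FPKM in P cords, against 35.9, 34.8 and 32.5 FPKM in H cords (-0.26, 95% CI -0.57 to 0.04, adjusted p = 0.216). It did not pass, although no P cord reached the lowest H cord. Insig2 (-0.04, 95% CI -0.27 to 0.19) and Scap (0.02, 95% CI -0.20 to 0.24) did not pass either, and the sign of each turned in some alternatives. These are transcript levels, which do not show how much SREBP is processed.

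Abca1 had the smallest adjusted p of the 36 genes. This transporter, which loads cholesterol onto lipid-poor apolipoproteins, had 23.2, 15.1 and 12.2 FPKM in P66, P67 and P74, against 4.56, 4.3 and 4.49 FPKM in H1, H2 and H4 (1.67 ± 0.18, adjusted p = 0.000499). Mylip, a ubiquitin ligase induced by liver X receptors that marks lipoprotein receptors for breakdown, had 10.9, 9.2 and 7.29 FPKM in P cords, against 4.39, 3.26 and 3.38 FPKM in H cords (1.11 ± 0.16, adjusted p = 0.00176). In both genes every P cord lay above every H cord, and P66 was the highest of the P cords and P74 the lowest. The receptors that are known to switch on Abca1 and Mylip did not pass: Nr1h2 differed by -0.08 (95% CI -0.33 to 0.17) and Nr1h3 by 0.24 (95% CI -0.04 to 0.52). Abcg1, another efflux transporter and known liver X receptor target, did not pass either (0.13, 95% CI -0.07 to 0.32), with 17.9 to 20 FPKM in P cords and 15.7 to 19 FPKM in H cords.

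Among the 4 genes of lysosomal release and storage 2 rose. Soat1, which esterifies cholesterol for storage in droplets, had 11.1, 9.44 and 6.97 FPKM in P cords, against 4.87, 5.73 and 4.82 FPKM in H cords (0.71 ± 0.14, adjusted p = 0.00702). Lipa, the lysosomal acid lipase that frees cholesterol from its esters, had 21.7, 18.2 and 17.7 FPKM in P cords, against 13.4, 14 and 10.6 FPKM in H cords (0.57 ± 0.15, adjusted p = 0.0276). Groups overlapped in neither gene, but the call of Lipa was lost in 6 of 12 alternatives. Npc1 and Npc2, which pass cholesterol out of the lysosome, did not pass, at 0.22 (95% CI -0.05 to 0.49) and 0.46 (95% CI 0.11 to 0.80, adjusted p = 0.0708).

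Ch25h, the enzyme that makes 25-hydroxycholesterol, was nearly undetected in healthy cord. It had 6.35, 4.31 and 1.79 FPKM in P66, P67 and P74, against 0.0404 and 0.0857 FPKM in H2 and H4, and was listed at 0 in H1. The P libraries held 298 of its reads in all and the H libraries 3, a ratio of 101 after scaling (95% CI 34.3 to 494, exact binomial, counting error only), and the difference on the log2(FPKM + 1) scale, which understates the change of so low a gene, was 2.20 ± 0.32 (adjusted p = 0.00173). P66 was again the highest of the P cords and P74 the lowest, and every P cord lay above every H cord. The mean log2(FPKM + 1) of 10 microglia markers was likewise highest in P66 and lowest in P74 among the P cords, at 2.16 and 1.19 above the mean of H. The mean of the astrocyte markers had the same order, at 0.95 and 0.59 above the mean of H. The means of the neuron, skeletal muscle and caudal Hox genes had the reverse order, lowest in P66 and highest in P74. The part of any of these in the levels of Abca1, Mylip, Soat1 and Ch25h was not tested. The other oxysterol enzymes did not pass: Cyp46a1, the neuronal 24-hydroxylase, differed by -0.04 (95% CI -0.30 to 0.22) and Cyp27a1, the mitochondrial 27-hydroxylase, by -0.05 (95% CI -0.31 to 0.21).

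Of the 21 calls between P and H, 13 held in all 12 alternatives. The 9 lower genes among them were Acat2, Hmgcs1, Mvk, Mvd, Fdft1, Cyp51, Sc5d, Insig1 and Stard4, and the 4 higher genes were Abca1, Mylip, Soat1 and Ch25h. Without H1 13 genes were lower and 6 higher, without H2 11 were lower and 4 higher, and without H4 14 were lower and 4 higher. The count of lower genes was 10 without P66 and likewise 10 without P67. Of all 18118 genes 129 were lower without P66 and 215 without P67, beside 591 with all libraries. Without H1, H2 and H4 in turn, 496, 153 and 639 of all genes were lower and 1606, 969 and 1894 higher.

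Groups C and E were then each compared with healthy cord, and both use the same 3 H mice as the comparison of P, so these comparisons are not independent of the one above. In C 13 genes were lower than in H and 5 higher, where 1.06% of all genes tested were lower and 7.25% higher. In E 15 were lower and 7 higher, where 2.15% of all genes were lower and 11.1% higher. The synthesis enzymes summed to 210 to 223 FPKM in C cords, 186 to 217 FPKM in E cords and 306 to 322 FPKM in H cords, which put the means of C and E at 69.5% and 64.7% of the healthy level. Gene by gene, 17 of the 36 lay below all H cords in C and 6 above them, where 8.63% and 22.7% of all genes did, and 18 lay below and 7 above in E, where 7.93% and 24.9% of all genes did. The lower genes of C were Acat2, Hmgcs1, Mvd, Idi1, Fdft1, Sqle, Cyp51, Msmo1, Nsdhl, Hsd17b7 and Sc5d of the synthesis enzymes, with Insig1 and Stard4, and its higher genes were Abca1, Mylip, Npc2, Soat1 and Ch25h. The lower genes of E were Acat2, Hmgcs1, Mvk, Pmvk, Mvd, Idi1, Fdft1, Sqle, Cyp51, Msmo1, Nsdhl, Hsd17b7 and Sc5d, with Insig1 and Stard4, and its higher genes were Srebf1, Nr1h3, Abca1, Mylip, Lipa, Soat1 and Ch25h.

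In C, too, the genes that passed stood on both sides of H. Hmgcs1 had 43.8, 42.4 and 41.9 FPKM in C79, C84 and C85 (-0.64 ± 0.12 against H, limma adjusted p = 0.00933), and Stard4 had 4.35, 5.23 and 4.25 FPKM (-0.78 ± 0.10, adjusted p = 0.00151). Abca1 had 11.6, 12.3 and 14.6 FPKM in the same order of mice (1.34 ± 0.18, adjusted p = 0.0018), and Mylip 7.05, 10.3 and 9.13 FPKM (1.07 ± 0.16, adjusted p = 0.00296). No C cord overlapped the H cords in any of these 4 genes. Ch25h had 2.72, 4.1 and 3.34 FPKM in C cords (2.06 ± 0.32, adjusted p = 0.00324), from 245 reads against 3 in H, a ratio of 82.2 (95% CI 27.8 to 401). Npc2, the soluble lysosomal sterol carrier, passed in C, with 38.9, 37.6 and 44 FPKM against 21.9, 24.7 and 27.1 FPKM in H cords (0.69 ± 0.16, adjusted p = 0.022), but its call was lost in 5 of 12 alternatives. The calls of Soat1, Mvd and Sqle in C were lost in 8, 6 and 6 of 12. Mvk did not pass in C (-0.37 ± 0.12, adjusted p = 0.0799), although its 5.5 to 6.33 FPKM in C cords lay below the 6.94 to 9.13 FPKM of H cords. The C count of lower genes depended on single mice, at 7 without C85 and 8 without H2. Over all 18118 genes the lower calls were 37 and 38 in these fits, beside 192 with all libraries. The count of higher genes was 3 without C79, C85, H1 or H2, where 529 to 971 of all genes were higher, beside 1313. Without H4 14 genes were lower and 4 higher, where 572 and 1343 of all genes were. Without H1 11 were lower, where 60 of all genes were.

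In E the synthesis enzymes were lowest in E75, whose mean log2(FPKM + 1) over the 18 was the lowest of all 12 libraries. Hmgcs1 had 32.7, 42.5 and 37.6 FPKM in E75, E77 and E90 (-0.82 ± 0.12 against H, adjusted p = 0.00198), and Fdft1 had 15.7, 16.4 and 16.3 FPKM (-0.63 ± 0.10, adjusted p = 0.0023). Both genes were lower in every E cord than in any H cord. Abca1 had 16, 14.5 and 19.7 FPKM (1.69 ± 0.18, adjusted p = 0.000465), Mylip 10.1, 9.54 and 12.2 FPKM (1.31 ± 0.16, adjusted p = 0.000788) and Ch25h 2.19, 4.16 and 5.47 FPKM (2.19 ± 0.32, adjusted p = 0.00175, from 282 reads). Nr1h3, the liver X receptor of macrophages and microglia among other cells, passed in E, with 3.38, 2.88 and 3.7 FPKM against 2.35, 2.28 and 1.86 FPKM in H cords (0.45 ± 0.13, adjusted p = 0.0411), but its call was lost in 8 of 12 alternatives. Srebf1 (0.44 ± 0.13, adjusted p = 0.0495) and Lipa (0.60 ± 0.15, adjusted p = 0.0233) also passed in E, and their calls were lost in 7 and 5 of 12 alternatives. Among the other calls of E, that of Pmvk was lost in 6 alternatives, that of Sqle in 4, that of Soat1 in 3 and that of Nsdhl in 1. The count of higher genes in E was 3 without E90 or without H4, and 5 without H1 or without H2. Over all 18118 genes the higher calls in these 4 fits were 967, 1742, 1591 and 992 in that order, beside 2003 with all libraries. The count of lower genes was 14 without H1, 13 without H2 and 14 without H4, where 355, 174 and 488 of all genes were lower, beside 390. A call made in C or E alone is not a difference from P, which was tested directly.

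**Figure D3:**
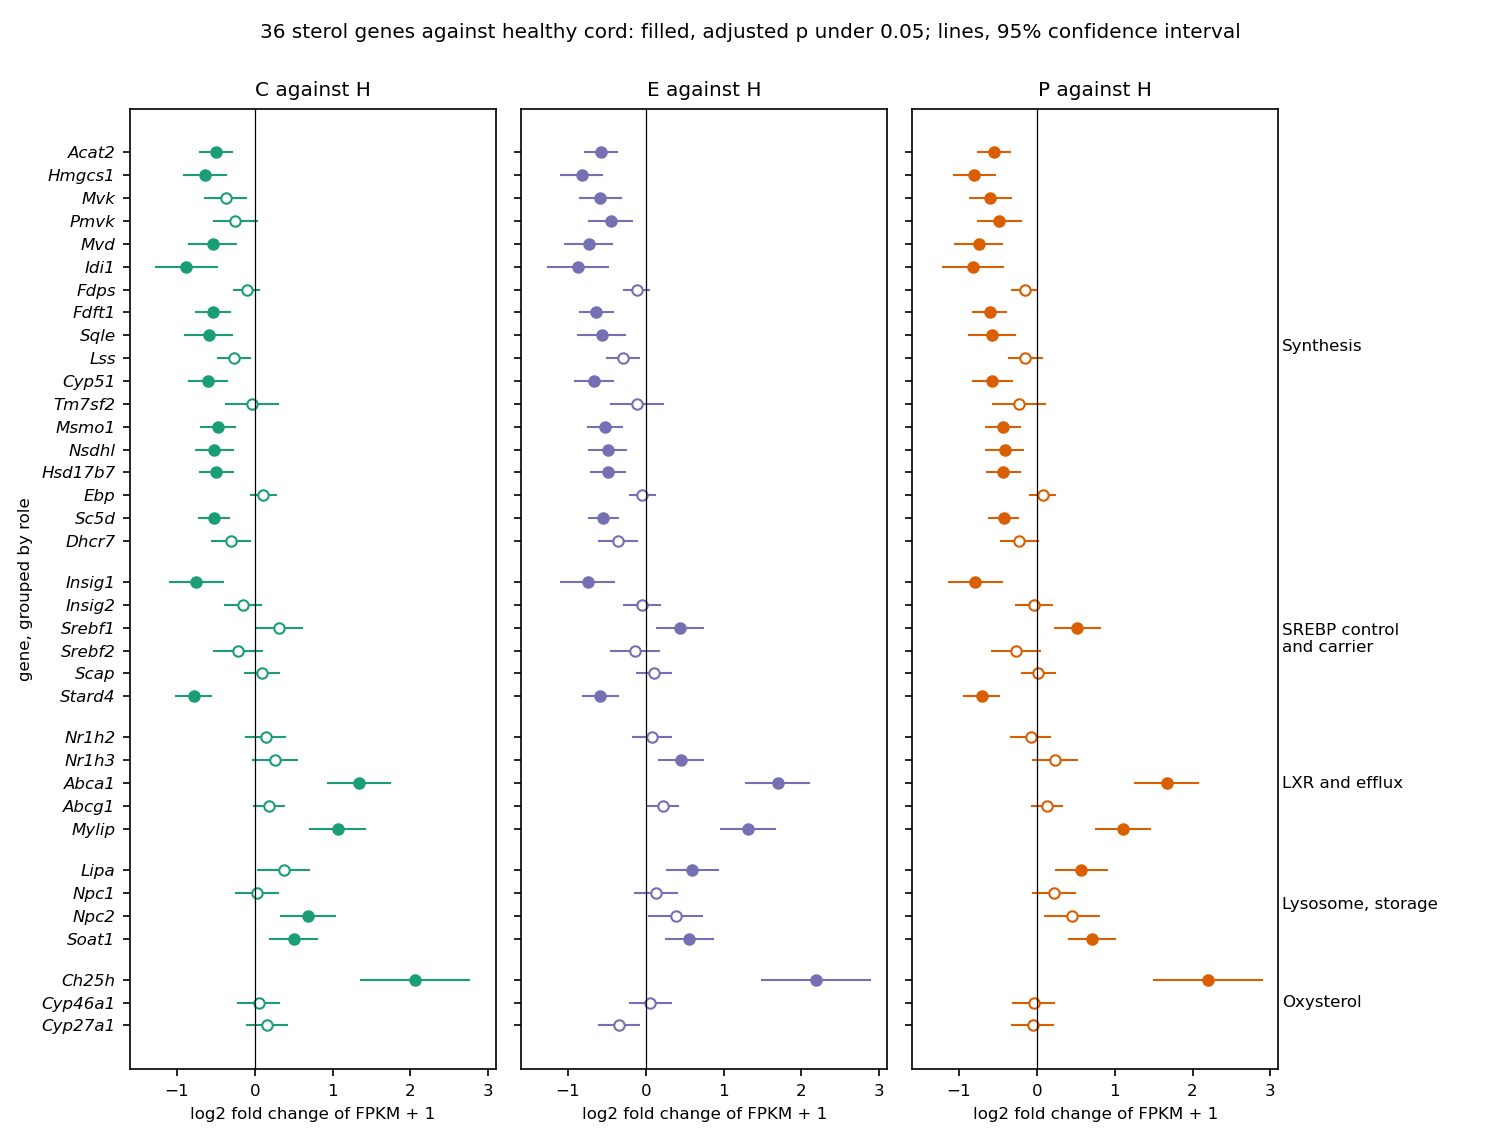
Log2 fold changes of FPKM + 1 against H (horizontal axes) for the 36 genes in rows, in C, E and P from left to right, with 95% confidence intervals as lines and filled points for adjusted p under 0.05. Filled points in the synthesis block all lie left of 0, and those in the efflux, storage and oxysterol blocks all lie right of 0.

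The comparisons of C and of E with P ask whether treatment moved these genes in ALS model cord, and none of the 36 passed in either (limma). Of all 18118 genes 0.00552% passed in C against P and 0% in E against P. At an unadjusted p under 0.05 the counts were 0 of 36 for C and 1 of 36 for E, where 9.95% and 4.91% of all genes reached it, and voom on the recovered reads also called 0 of 36 in each. The median difference over the 18 synthesis enzymes was 0.01 for C minus P and -0.04 for E minus P. Over the 36 genes the 95% intervals reached at most from -0.83 to 0.58 for C and from -0.70 to 0.68 for E, both ends of E and the lower end of C being those of Ch25h.

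The 3 genes of smallest p in C against P were Nr1h2 (0.22, 95% CI -0.03 to 0.47, adjusted p = 0.556), Mvk (0.23, 95% CI -0.04 to 0.49, adjusted p = 0.564) and Pmvk (0.23, 95% CI -0.04 to 0.51, adjusted p = 0.571), and none of them passed. Nr1h2 had 18.1, 21.2 and 19.3 FPKM in C cords, against 15, 17.2 and 17.7 FPKM in P cords. Hmgcs1 was likewise higher in every C cord than in any P cord (0.17, 95% CI -0.10 to 0.43, adjusted p = 0.69), and Lipa was lower in every one, with 16.2, 17 and 16.4 FPKM in C cords, against 21.7, 18.2 and 17.7 FPKM in P cords (-0.20, 95% CI -0.53 to 0.13, adjusted p = 0.706). That made 2 of 36 genes higher and 1 of 36 lower without overlap, where 8.33% of all genes were higher and 8.77% lower in this way. Abca1 was at -0.33 (95% CI -0.73 to 0.08, adjusted p = 0.591) in C against P, with P66 far above all C cords and P74 within their range.

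In E against P the 3 genes of smallest p were Cyp27a1 (-0.29, 95% CI -0.55 to -0.03 before adjustment, adjusted p = 0.92), Ebp (-0.12, 95% CI -0.28 to 0.04) and Nr1h3 (0.21, 95% CI -0.07 to 0.49), and none of them passed. Cyp27a1 had 22.9, 20.2 and 26.7 FPKM in E cords, against 32.7, 27.3 and 25.9 FPKM in P cords. E90 lay above P74 there, so the groups overlapped. Ebp was the only one of the 36 genes whose E and P cords did not overlap, with 8.67 to 8.95 FPKM in E cords and 9.18 to 9.95 FPKM in P cords, where 4.2% of all genes were lower and 4.81% higher without overlap. Hmgcs1 (-0.02, 95% CI -0.29 to 0.25) and Abca1 (0.03, 95% CI -0.38 to 0.43) were close to 0 in this comparison.

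**Figure D4:**
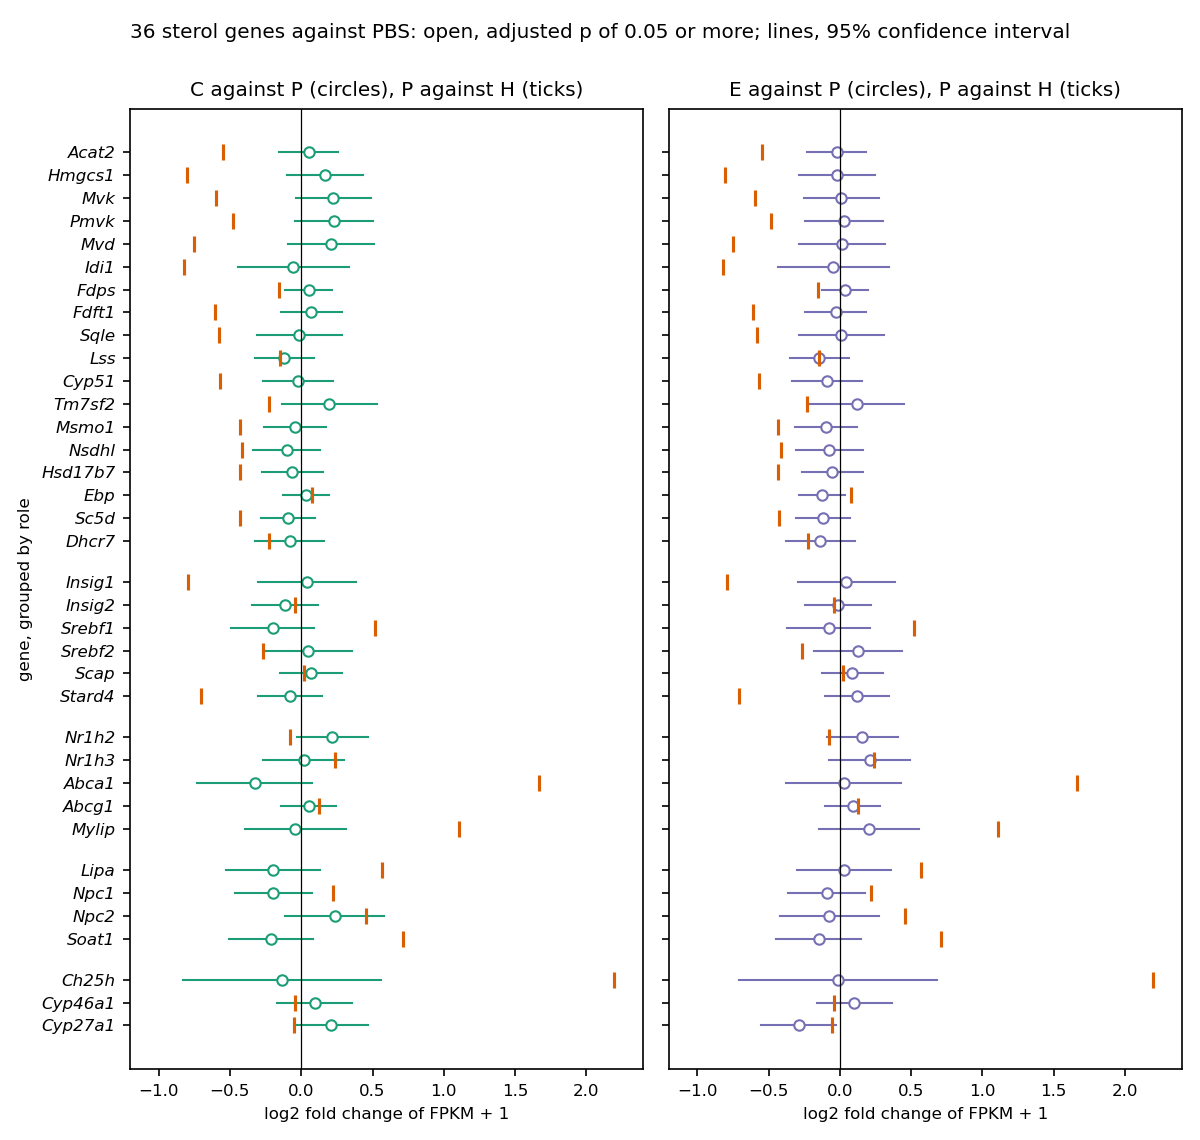
Log2 fold changes of FPKM + 1 (horizontal axes) of C against P (left) and E against P (right) for the 36 genes in rows, as open circles with 95% confidence intervals; orange ticks give P against H. No circle passed, and the circles lie between -0.33 and 0.23 for C against P and between -0.29 and 0.21 for E against P.

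In each of the 9 ALS model libraries 15 to 18 of the 18 synthesis enzymes lay below all 3 H cords, where 16.4% to 26.7% of all 18118 genes tested did. The mean log2(FPKM + 1) of these enzymes lay below the mean of H by 0.37 to 0.47 in C cords, by 0.41 to 0.59 in E cords and by 0.32 to 0.58 in P cords. P66 had the lowest synthesis mean of the P cords and P74 the highest, and P66 also had the highest mean of the 12 efflux, storage and oxysterol genes and P74 the lowest.

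**Figure D5:**
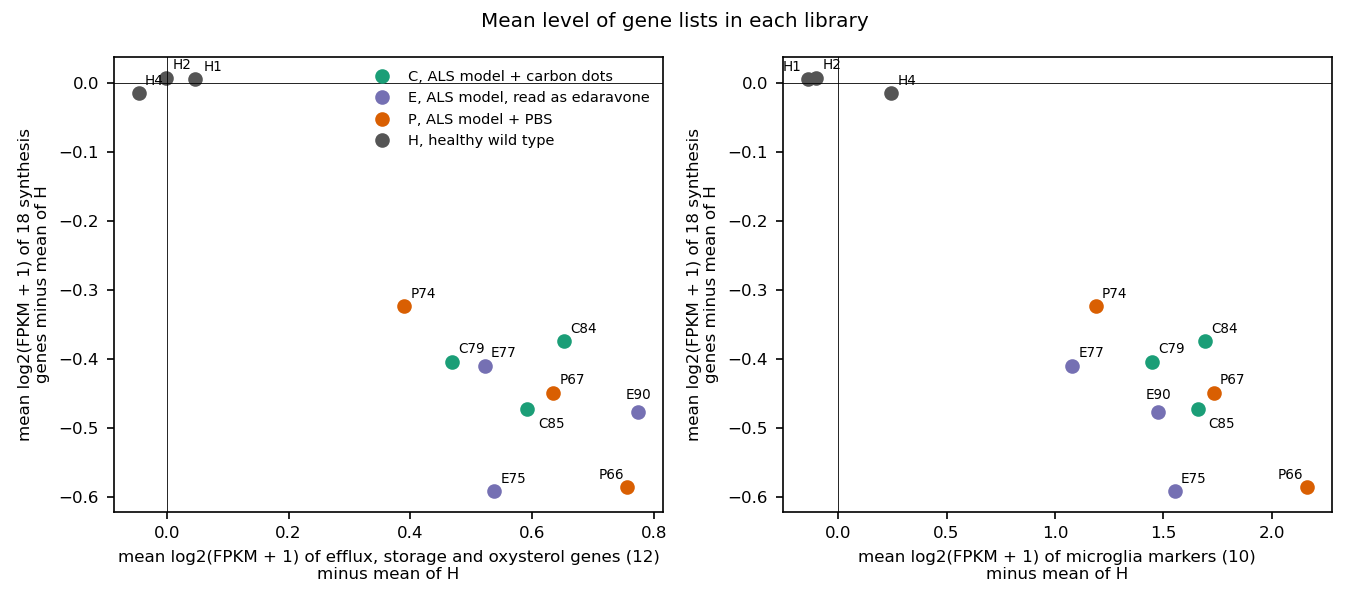
Mean log2(FPKM + 1) of the 18 synthesis enzymes minus the mean of H (vertical axes) in each library, plotted over the same measure for the 12 efflux, storage and oxysterol genes (left) and for 10 microglia markers (right). The 3 H libraries lie near 0 on the vertical axis and all 9 C, E and P libraries at -0.32 or below, with E75 and P66 the lowest.

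Marker levels of several cell types also differed between the groups. Of 10 microglia markers 9 were higher in P than in H, and their summed FPKM was 486 to 619 in C cords, 415 to 614 in E cords, 446 to 948 in P cords and 133 to 178 in H cords. Astrocyte markers were higher for 7 of 10 in P against H, with sums of 2359 to 2980 FPKM in C cords, 2098 to 2805 FPKM in E cords, 2259 to 3682 FPKM in P cords and 1200 to 1312 FPKM in H cords. Neuron markers were lower for 7 of 10 in P against H, with sums of 1201 to 1335 FPKM in C cords, 1168 to 1241 FPKM in E cords, 884 to 1416 FPKM in P cords and 1616 to 2150 FPKM in H cords. Oligodendrocyte markers, those of the cells that make myelin, gave 1 lower (Mog) and 1 higher (Opalin) of 10 in P against H, and their sums were 3017 to 3453 FPKM in C cords, 2132 to 2718 FPKM in E cords, 2779 to 3088 FPKM in P cords and 3076 to 3784 FPKM in H cords. The oligodendrocyte sum averaged 97.6% of the healthy level in C cords, 74.98% in E cords and 87.1% in P cords, beside synthesis sums at 69.5%, 64.7% and 67.1% of it in the same order. Schwann cell markers summed to 30.03 to 88.0 FPKM in C cords, 191 to 488 FPKM in E cords, 57.1 to 128 FPKM in P cords and 8.74 to 50.3 FPKM in H cords. Erythroid markers, those of red blood cells, were lower for 1 of 6 in C, 5 of 6 in E and 3 of 6 in P against H, with sums of 205 to 389 FPKM in C cords, 108 to 267 FPKM in E cords, 128 to 307 FPKM in P cords and 402 to 2578 FPKM in H cords. Their highest sums were in H4, and H1 was next at 1266 FPKM. No marker list summed to 0 in any library, and the part of cell makeup or of the cord level sampled in the changes of the sterol genes was not tested.

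Of 39 further lipid genes set beside these, 38 could be tested, and 3 fell (7.89%) and 6 rose (15.8%) in P against H, beside 3.26% and 12.2% of all genes. Scd1, which makes monounsaturated fatty acids, had 110, 121 and 119 FPKM in P cords, against 172, 156 and 183 FPKM in H cords (-0.54 ± 0.11, limma adjusted p = 0.00779). Acss2, which makes acetyl-CoA from acetate, fell as well (-0.34 ± 0.08, adjusted p = 0.0161). Over all 18 genes of fatty acid synthesis and other SREBP-linked lipid steps the median difference was -0.01, with 3 lower and 1 higher. Plin2, which coats lipid droplets, had 17, 12.5 and 7.79 FPKM in P cords, against 5.07, 4.21 and 3.69 FPKM in H cords (1.28 ± 0.23, adjusted p = 0.00468). Lpcat3, a phospholipid-remodelling enzyme and known liver X receptor target, had 10.7, 9.91 and 8.04 FPKM in P cords, against 5.96, 4.87 and 4.76 FPKM in H cords (0.77 ± 0.12, adjusted p = 0.00245). Both rose without overlap. Cyp7b1, which breaks down oxysterols including 25-hydroxycholesterol, rose by 0.63 ± 0.13 (adjusted p = 0.0112), and Lcat, which esterifies cholesterol on lipoproteins, by 0.71 ± 0.17 (adjusted p = 0.0205). Against H, 2 of these 38 genes were lower and 4 higher in C, where 1.06% of all genes were lower and 7.25% higher. In E 2 were lower and 6 higher, where 2.15% of all genes were lower and 11.1% higher. None of the 38 passed in C or E against P.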

How the data were processed

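Lumbar spinal cord RNA from 12 mice was measured as FPKM per gene. The authors deposited 1 FPKM table per group, and cutadapt, HISAT2, featureCounts and the build GRCm38 are named in the submitters' processing notes, without versions. The sources used here do not state the strand setting. IDs were matched to GENCODE M21 (33829 of 33906). The deposited FPKM values were whole multiples of 1 read for 95.3% to 95.7% of low values (tolerance 0.02), which gave read counts used for the filter, the voom alternative and Ch25h. A gene was tested where 3 or more libraries reached the CPM that 10 reads make in a library of median depth and the 12 libraries held 15 or more reads together, which kept 18118 genes and all 36 listed here. limma 3.58.1 (R 4.3.3) was fitted to log2(FPKM + 1) over all 4 groups (8 residual degrees of freedom, trended robust variances), two-sided, with Benjamini-Hochberg adjustment over all genes tested and a threshold of 0.05. Replicates are separate mice per the labels, and within-group Pearson correlations were 0.966 to 0.993. Alternatives were another pseudocount (0.1), other filters, median-ratio scaling, fits of only the groups compared, voom and leaving out each library. The fit code was also run on simulated counts with the same spread for every gene, which does not show how the calls hold in these libraries. Members, roles and lists were chosen with earlier results of these data known. Values per library are given for the 8 synthesis and control genes of smallest adjusted p in P against H without overlap and for all passing genes of the other roles, with further genes added after their values were seen, the 3 smallest p against P, and the 6 further lipid genes of smallest adjusted p. Promoter windows came from RefSeq (GRCm38.p6) and motifs were searched on both strands. No deposited column was left out.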

Additional observations from a re-analysis of the deposited data

How the results depend on the processing

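The P against H differences of the members kept their direction in every alternative except for 6 genes that had not passed. With median-ratio scaling Ebp was -0.026 and Scap -0.082. Leaving out 1 library of P or H, Scap ranged from -0.015 to 0.083, Insig2 from -0.13 to 0.025, Nr1h2 from -0.14 to 0.0047, Cyp46a1 from -0.11 to 0.070 and Cyp27a1 from -0.15 to 0.012. The cause was not tested. With no filter (32961 genes tested) the counts of all genes called were 736 for C against H, 5 for C against P, 1469 for E against H, 3 for E against P and 1444 for P against H, and the members higher were 3 in C and 4 in E. In the fit of only the groups compared the count of P against H was 1471 and 4 members were higher in E against H. Median-ratio scaling gave 4 members higher in E, where 1287 of all 18118 genes were higher. It gave 2 genes in C against P, where voom and a pseudocount of 0.1 each gave 0. That scaling also cut the higher share of calls to 53.2% for P against H, 67.03% for C against H and 58.4% for E against H, against 78.9%, 87.2% and 83.7% as deposited. Leaving out 1 library of the groups compared, all genes called ranged from 933 to 3535 for P against H, 567 to 1915 for C against H, 1159 to 2230 for E against H, 0 to 2 for C against P and 0 to 2 for E against P, and members ranged from 7 to 14 lower and 3 to 4 higher in C and from 3 to 7 higher in E. Without P66, which is in neither comparison but shares the fit, C against H gave 1976 calls and E against H 2795. Voom on the recovered reads called 3104 genes for P against H, 1662 for C against H and 2789 for E against H. No member passed against P in any alternative run. No paired analysis was possible because the groups share no mouse numbers. Depth limits Fdps and, in H, Ch25h, which rest on 30 reads or fewer in a library and on 3 reads in all.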
